A study of Mus musculus with 12 samples.

Results

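A set of 9 genes that mark the septum or the thalamus in the mouse forebrain was followed in the prefrontal cortex and the striatum of ethanol-drinking mice: Zic1, Zic2, Zic4, Tcf7l2, Prkcd, Lef1, Lhx9, Rora and Plekhg1. They were chosen by name, with earlier results of these data known. Every probe set that the platform annotation gives a single one of these symbols was taken. All 9 genes were measured, by 28 probe sets, out of 18193 genes and 45037 tested probe sets on the array. Where a gene had several probe sets, the one with the highest mean over the 12 arrays stood for it, and the others are given beside it.

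Septum and thalamus border the tissues that were dissected. The septum lies medial to the striatum, and the thalamus lies behind it. Zic genes encode zinc finger transcription factors that pattern the dorsal and medial brain, and they are also expressed in the meninges. Tcf7l2 and Lef1 encode DNA-binding partners of beta-catenin through which Wnt signals reach their target genes, and Tcf7l2 is retained in mature thalamic neurons. Rora encodes an orphan nuclear receptor of thalamus, cerebellum and cortex, Lhx9 a LIM homeodomain factor of the developing dorsal diencephalon, Prkcd a protein kinase C isoform abundant in thalamic relay neurons, and Plekhg1 a protein with a pleckstrin homology domain.

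The mice were outbred Swiss males that drank by free choice. From 6 weeks of age they were offered 3 bottles holding 5% ethanol, 10% ethanol or water, over 10 weeks of acquisition, 2 weeks with ethanol withdrawn, 2 weeks of reinstatement and 2 weeks with 0.005 g/L of bitter quinine in the ethanol, and then 1 further week of choice. The label for age at the end reads 22 weeks. Inflexible drinkers kept their preference for ethanol in every phase, quinine included, with blood ethanol of 113 ± 11.3 mg/dL, and light drinkers took more water than ethanol and had 48 ± 13.3 mg/dL (kind of error not stated). The 4 groups were striatum of inflexible drinkers, striatum of light drinkers, prefrontal cortex of inflexible drinkers and prefrontal cortex of light drinkers, with 3 arrays each. Every group had access to ethanol, and mice given only water are not analysed here. The labels quote 1 concentration of pooled RNA per group, so the arrays of a group may be repeat hybridisations of 1 pool, and p-values then measure only the spread between these arrays. In pooled bulk tissue, fewer cells of a type and less RNA per cell cannot be told apart.

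Levels are the deposited log2 values, which ran from 2.76 to 12.17 on these arrays. A mean of 4 was used to separate dim probe sets from brighter ones, and values near the lower end have little range left in which to differ. Only Zic1 and Rora stood above it, with 2 of 2 and 3 of 9 probe sets, so 2 of 9 genes and 5 of 28 probe sets were bright. Differences are given ± SE from limma, a linear model fitted across all probe sets, with p-values adjusted by the Benjamini-Hochberg method over all 45037. A difference passed at an adjusted p under 0.05.

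The regional labels were checked first. The 10 measured medium spiny neuron markers, genes of the main striatal projection neuron, all passed as higher in striatum than in prefrontal cortex, in inflexible drinkers (median difference 1.67) and in light drinkers (2.17). Prefrontal cortex of inflexible drinkers also carried more of these markers than that of light drinkers, with a mean level of 5.59 to 5.68 in inflexible and 4.61 to 4.69 in light drinkers. Penk, the enkephalin precursor, rose there by 1.58 ± 0.13, and Ttr, a thyroid hormone carrier of the choroid plexus, rose by 6.25 ± 0.23. The 9 measured cortical excitatory neuron markers had a median difference, striatum minus prefrontal cortex, of -0.22 in inflexible drinkers and -0.28 in light drinkers. Of these, 4 passed as lower in striatum of inflexible drinkers, and 3 as lower and 1 (Neurod6, 0.79 ± 0.09) as higher in striatum of light drinkers. The 18 probe sets of the spiked hybridisation controls split the arrays into 5 with high and 7 with low values. The high ones were striatal inflexible replicates 1 and 3, striatal light replicate 1, prefrontal inflexible replicate 2 and prefrontal light replicate 2. The origin of the split is not labelled.

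Most other markers of septum and thalamus were near the lower end of the scale in all groups. Of 8 other septal genes measured, 0 had a mean above 4, and the cholinergic enzyme gene Chat averaged 2.96 over the 12 arrays. Of 13 other thalamic and habenular genes, 4 did, namely Ntng1, Amotl1, Plcb4 and Calb2, while the thalamic homeobox genes Gbx2 and Shox2 averaged 2.90 and 2.92. The mean level of the thalamic list lay between 3.56 and 3.60 in striatum of inflexible drinkers, between 3.59 and 3.64 in striatum of light drinkers, between 3.64 and 3.68 in prefrontal cortex of inflexible drinkers and between 3.72 and 3.76 in prefrontal cortex of light drinkers. Markers as dim as most of these cannot show whether septal or thalamic tissue was present, and the 4 brighter ones were not tested as signs of it. The part of such tissue in the Zic1 and Rora values was not tested. Both genes are described below by name only.

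**Figure D1:**
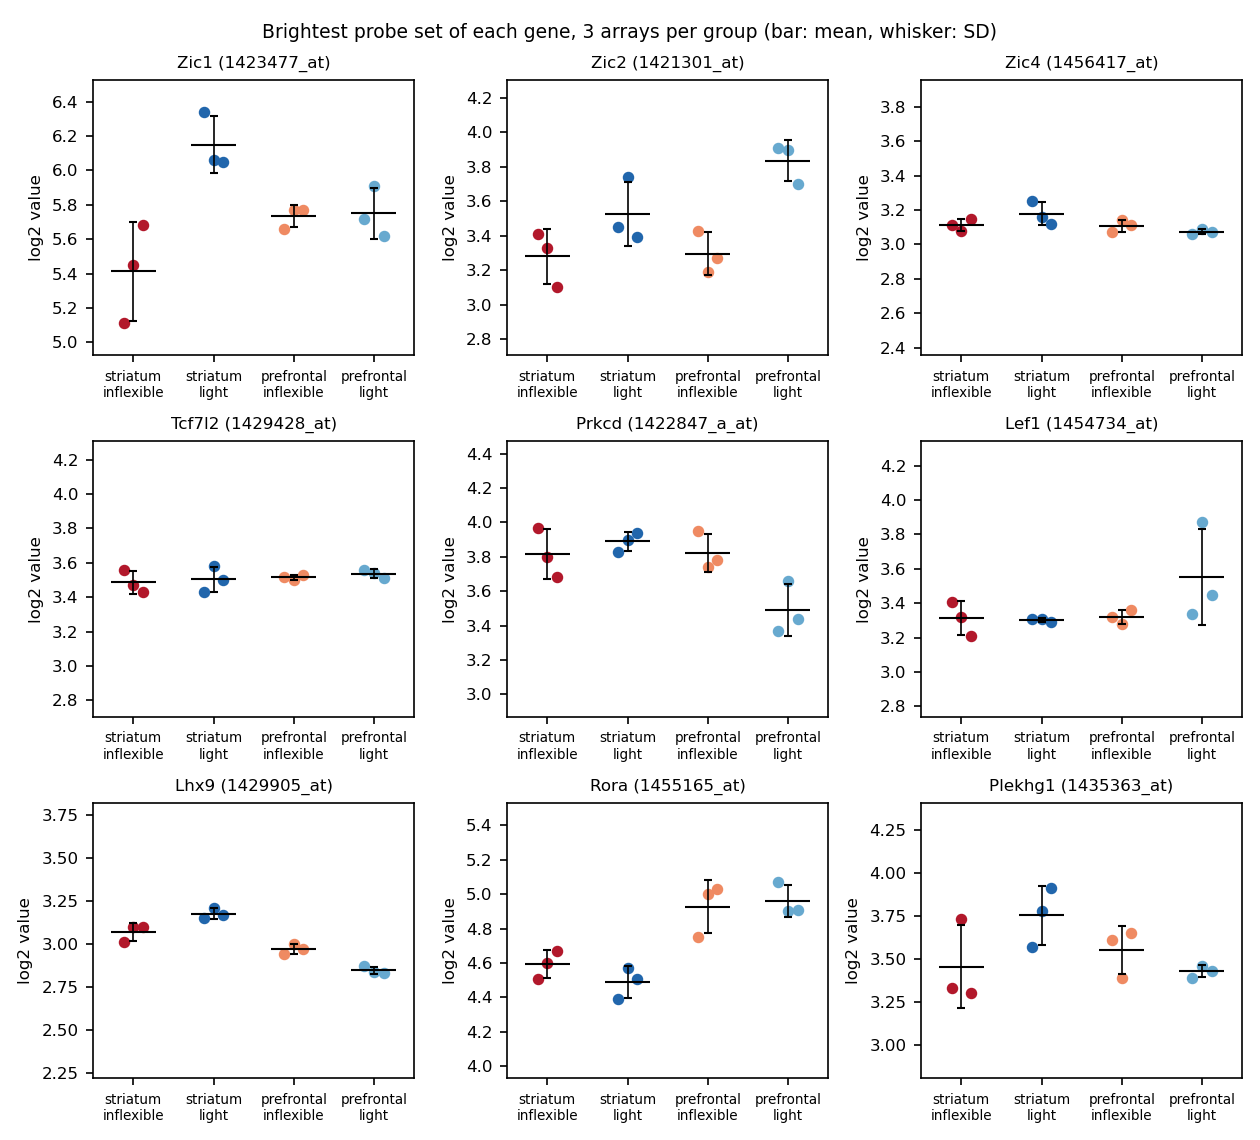
Log2 value of the brightest probe set of each of the 9 genes on every array, grouped by region and drinking class, with the mean (bar) and SD (whisker) of 3 arrays. All panels span the same range of log2 units, and Zic1 in striatum, Zic2 in prefrontal cortex and Rora between regions show the widest separations.

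Zic1 was measured by 2 probe sets, both bright, and striatum of light drinkers was highest in each. In the brightest probe set the striatal arrays of inflexible drinkers read 5.11, 5.45 and 5.68, against 6.34, 6.06 and 6.05 in striatum of light drinkers. Prefrontal arrays read 5.66, 5.77 and 5.77 in inflexible drinkers, against 5.72, 5.91 and 5.62 in light drinkers. Striatum of light drinkers was thus highest, with no overlap with any other group, the prefrontal groups overlapped each other, and striatum of inflexible drinkers was lowest and overlapped both prefrontal groups on its highest array.

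In striatum the Zic1 difference was -0.73 ± 0.14 (95% interval -1.04 to -0.42), or 1.66-fold lower in inflexible drinkers. It did not pass over all probe sets (adjusted p = 0.302). The second probe set read 3.60, 4.33 and 4.23 in inflexible and 4.98, 5.01 and 4.78 in light striatum, a difference of -0.87 ± 0.17 (adjusted p = 0.329). Both probe sets thus placed all 3 inflexible arrays below all 3 light arrays in striatum. In prefrontal cortex the difference was -0.02 for either probe set, with SEs of 0.14 and 0.17. The striatal minus the prefrontal difference was -0.71 ± 0.20 (adjusted p = 0.330) and -0.85 ± 0.24 (adjusted p = 0.345), so a difference between regions was not established by this test. Between regions, the brightest probe set differed by -0.31 ± 0.14 in inflexible drinkers (adjusted p = 0.667) and by 0.39 ± 0.14 in light drinkers (adjusted p = 0.241).

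The striatal Zic1 difference was also taken with the hybridisation-control split. With the split as a block it was -0.78 (adjusted p = 0.116). The low-control arrays, with 1 inflexible and 2 light striatal arrays, gave -0.60, and the high-control arrays, with 2 inflexible and 1 light, gave -0.94, so each rests on a single array of one class. Leaving out single arrays gave -0.87 to -0.58, the smallest without inflexible replicate 1, which held the lowest value.

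Meningeal and fibroblast markers moved alongside Zic1 in striatum. Their mean level ran from 3.60 to 3.67 in striatum of inflexible drinkers, against 3.80 to 3.86 in striatum of light drinkers. Of the 12 genes 0 were higher in inflexible striatum, the median difference was -0.18 and 0 passed. Of these, 7 reached an unadjusted p under 0.05 (3.69% of all genes). In prefrontal cortex the same list stood at 3.82 to 3.88 in inflexible and 4.16 to 4.19 in light drinkers, a wider gap than in striatum, and there Zic1 differed by -0.02. The 8 other septal genes had a median difference of -0.01 in striatum and the medium spiny neuron markers one of 0.50. The part of any of these in the Zic1 values was not tested.

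**Figure D2:**
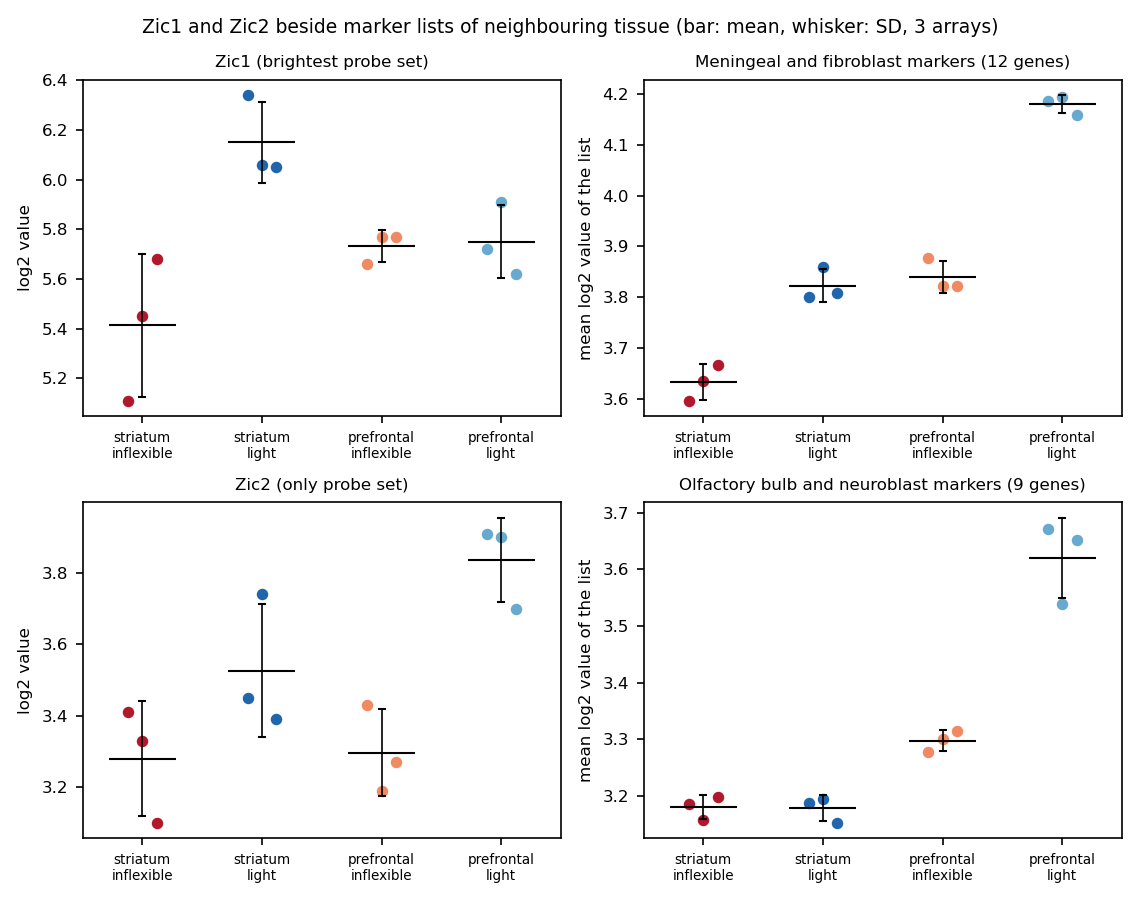
Zic1 and Zic2 (left, log2 value per array) beside the mean log2 level of 12 meningeal and fibroblast markers and 9 olfactory bulb and neuroblast markers (right), with mean and SD of 3 arrays per group. Meningeal markers were lower in inflexible than in light drinkers in both regions, whereas olfactory bulb markers were lower in prefrontal cortex and overlapped in striatum.

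Zic2 was dim and had a single probe set. Prefrontal arrays read 3.43, 3.19 and 3.27 in inflexible drinkers, against 3.91, 3.90 and 3.70 in light drinkers, with no overlap. The difference of -0.54 ± 0.11 (95% interval -0.79 to -0.29), or 1.46-fold lower, narrowly missed the threshold (adjusted p = 0.0709). It passed with the hybridisation-control split as a block (adjusted p = 0.0423) and in the 6 prefrontal arrays alone with the replicate number as a block (adjusted p = 0.0466), but not with that block over all 12 arrays (adjusted p = 0.0689). On the low-control arrays it was -0.46 and on the high-control arrays -0.71, and leaving out single arrays gave -0.61 to -0.49. Leaving out any single prefrontal array gave adjusted p-values of 0.105 to 0.266. Of 20 other settings 2 passed, and that of the prefrontal arrays alone was added after the data were seen. In both prefrontal groups replicate 2 alone had high controls, so the blocks of these 2 settings overlap and are not separate evidence.

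In striatum Zic2 read 3.41, 3.33 and 3.10 in inflexible and 3.45, 3.74 and 3.39 in light drinkers. These overlapped, with a difference of -0.25 ± 0.11 (adjusted p = 1.00). The light prefrontal arrays were the highest of the 4 groups apart from 1 striatal light array at 3.74. Olfactory bulb and neuroblast markers moved with prefrontal Zic2: their mean level was 3.28 to 3.31 in inflexible and 3.54 to 3.67 in light prefrontal cortex, and 3.16 to 3.20 in inflexible and 3.15 to 3.20 in light striatum. Of 9 such genes 3 fell in prefrontal cortex of inflexible drinkers, namely Cdhr1, a cadherin (-1.11 ± 0.14), and the forebrain interneuron factors Dlx1 (-0.35 ± 0.04) and Sp8 (-0.28 ± 0.04), and 0 rose. The meningeal list moved the same way, with 3 of 12 genes fallen, among them Fmod, a matrix proteoglycan (-0.89 ± 0.10). Of all genes 1.04% were called between drinking classes in prefrontal cortex. The part of both lists in the Zic2 values was not tested.

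Zic4 lies next to Zic1 on chromosome 9 and was measured by 2 dim probe sets. The brighter one averaged 3.11 ± 0.04 in inflexible and 3.18 ± 0.06 in light striatum, and 3.11 ± 0.04 in inflexible and 3.08 ± 0.01 in light prefrontal cortex (SD, n = 3 each). The class difference was -0.07 ± 0.04 in striatum (95% interval -0.14 to 0.01) and 0.03 ± 0.04 in prefrontal cortex. The other probe set read from 2.87 to 2.94 on all 12 arrays.

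The sequence before the start site is shown for Zic1 and Zic4, neighbours of which only Zic1 had a mean above 4. It is also shown for Rora and Lhx9, which were called between regions in light drinkers. Prkcd was called there too, and its windows are not shown. The letters are the 250 bases before each start in RefSeq GRCm38.p6, a table that matched 8 of the 9 genes with 13 windows, all but Zic2. Capitals mark letters of 6 motifs searched on both strands: the GC box GGGCGG, the CCAAT box, the ZIC core CAGCAGG, the TCF/LEF letters CTTTGAT, the nuclear receptor letters AGGTCA and the LIM homeodomain letters TAATTA. The Zic1 window (chr9:91365769-91366018, minus strand, 66.0% G or C) and the Zic4 window (chr9:91368722-91368971, plus strand, 44.4%) lie 2703 bases apart on opposite strands. The Rora window is chr9:68653536-68653785 on the plus strand (61.2%), and the Lhx9 window is chr1:138842445-138842694 on the minus strand (53.6%).
Zic1: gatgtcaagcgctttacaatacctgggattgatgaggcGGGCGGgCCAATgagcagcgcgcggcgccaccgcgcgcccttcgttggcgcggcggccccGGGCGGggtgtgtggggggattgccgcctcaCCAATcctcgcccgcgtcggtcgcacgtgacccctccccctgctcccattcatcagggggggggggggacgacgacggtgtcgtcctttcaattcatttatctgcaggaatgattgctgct
Zic4: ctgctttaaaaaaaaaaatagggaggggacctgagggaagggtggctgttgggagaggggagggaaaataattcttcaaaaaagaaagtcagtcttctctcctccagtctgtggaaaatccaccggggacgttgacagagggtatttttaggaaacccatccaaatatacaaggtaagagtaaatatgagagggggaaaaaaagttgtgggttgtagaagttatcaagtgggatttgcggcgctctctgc
Rora: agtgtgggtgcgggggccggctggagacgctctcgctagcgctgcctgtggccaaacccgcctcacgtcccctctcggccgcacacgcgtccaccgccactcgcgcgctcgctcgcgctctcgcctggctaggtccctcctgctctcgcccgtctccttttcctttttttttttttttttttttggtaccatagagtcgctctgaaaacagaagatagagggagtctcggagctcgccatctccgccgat
Lhx9: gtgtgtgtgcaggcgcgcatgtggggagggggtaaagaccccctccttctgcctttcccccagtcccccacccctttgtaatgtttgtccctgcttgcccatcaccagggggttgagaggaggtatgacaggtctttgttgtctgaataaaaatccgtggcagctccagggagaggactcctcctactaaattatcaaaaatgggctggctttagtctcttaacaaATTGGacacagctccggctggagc

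The Zic1 window held 2 GC boxes and 2 CCAAT boxes, and its G and C content was above the median of 52.4% over all 32851 windows. The Zic4 and Rora windows held 0 of the 6 motifs, and the Lhx9 window held 1 CCAAT box, read on the opposite strand as ATTGG. Among the dim genes, 1 window of Tcf7l2 held 6 GC boxes (72.8% G or C) and 1 of Prkcd held 4 (67.6%). Windows of Lef1 held 1 or 0. Of all windows 32.7% held a GC box and 33.8% a CCAAT box. Whether motifs went with level was not tested. The ZIC core stood in 2 overlapping windows of Lef1 and in 8.4% of all windows. The TCF/LEF letters (3.2% of all windows), the nuclear receptor letters (14.0%) and the LIM letters (4.8%) were in none of the 13 windows.

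Tcf7l2 was dim and even. Its brightest probe set averaged 3.49 ± 0.07 in inflexible and 3.50 ± 0.08 in light striatum, and 3.52 ± 0.02 in inflexible and 3.54 ± 0.02 in light prefrontal cortex (SD, n = 3 each). The class difference was -0.02 ± 0.04 in each region, with 95% intervals of -0.11 to 0.08 in striatum and -0.12 to 0.08 in prefrontal cortex. Of its 3 other probe sets, 1 placed all inflexible striatal arrays (3.18, 3.21 and 3.14) below all light striatal arrays (3.30, 3.40 and 3.27), a difference of -0.15 ± 0.04 that did not pass (adjusted p = 0.808).

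Lef1, the second beta-catenin partner, rested on 1 array. Prefrontal values were 3.32, 3.28 and 3.36 in inflexible and 3.34, 3.87 and 3.45 in light drinkers, a difference of -0.24 ± 0.11 (adjusted p = 0.719). Without light replicate 2, the array at 3.87, it was -0.08. Striatal values lay between 3.21 and 3.41 in inflexible and between 3.29 and 3.31 in light drinkers. Of 19 other Wnt and beta-catenin genes 0 passed between drinking classes in prefrontal cortex. There 5 reached an unadjusted p under 0.05 (9.17% of all genes). In striatum 0 passed, with 0 at an unadjusted p under 0.05 (3.69% of all genes). Axin2, a feedback inhibitor that Wnt signalling induces, had the smallest prefrontal p of the list, with 3.73 ± 0.03 in inflexible and 4.02 ± 0.11 in light drinkers and a difference of -0.28 ± 0.10 (adjusted p = 0.411).

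Prkcd differed between regions in light drinkers. In inflexible drinkers striatum read 3.97, 3.80 and 3.68 and prefrontal cortex 3.95, 3.74 and 3.78, a difference of -0.01 ± 0.09. In light drinkers striatum read 3.83, 3.90 and 3.94, against 3.37, 3.66 and 3.44 in prefrontal cortex, and the difference of 0.40 ± 0.09 passed narrowly (adjusted p = 0.0492). The prefrontal class difference was 0.33 ± 0.09, with all inflexible arrays above all light arrays (adjusted p = 0.219). It uses the same light prefrontal arrays as the regional difference in light drinkers, so these 2 values are not separate evidence. In the arrays with low controls the prefrontal difference passed (0.46, adjusted p = 0.0452), and in those with high controls it was 0.09. The second Prkcd probe set, at 3.01 to 3.36, differed by 0.04 ± 0.06 between drinking classes in prefrontal cortex. Between regions in light drinkers it differed by 0.12 ± 0.06 and did not pass (adjusted p = 0.598).

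On the high-control arrays the regional Prkcd difference in light drinkers was 0.17. Its call held in only 7 of 19 other settings. It had an adjusted p of 0.105 with the replicate block, 0.0852 after quantile normalisation and 0.0961 in the light arrays alone, and leaving out any single light array except prefrontal replicate 2 gave 0.0905 to 0.184. It was also lost without striatal inflexible replicate 2 and prefrontal inflexible replicates 2 and 3, which enter only the estimate of the spread (0.0747, 0.0580 and 0.0773). The 7 other protein kinase C genes measured had a median prefrontal class difference of 0.15 and 0 passed. Of these, 3 reached an unadjusted p under 0.05 (9.17% of all genes). Prkca, a calcium-dependent isoform, had the smallest p, at 7.02 ± 0.10 in inflexible and 6.80 ± 0.07 in light drinkers (0.22 ± 0.05, adjusted p = 0.115). Beside prefrontal Prkcd, medium spiny neuron markers differed by a median of 1.04, with 6 of 10 risen, and myelin markers by 1.02, with 5 of 9 risen. Of all genes 1.04% were called between drinking classes in prefrontal cortex. The part of both marker lists in the Prkcd values was not tested.

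Lhx9 lay close to the lower end of the scale, and its arrays were tightly grouped. Striatum read 3.01, 3.10 and 3.10 in inflexible and 3.15, 3.21 and 3.17 in light drinkers, and prefrontal cortex read 2.94, 3.00 and 2.97 in inflexible and 2.87, 2.84 and 2.83 in light drinkers. The inflexible arrays were thus below the light arrays in striatum and above them in prefrontal cortex, without overlap in either region. The differences were -0.10 ± 0.03 in striatum (adjusted p = 1.00) and 0.12 ± 0.03 in prefrontal cortex (adjusted p = 0.180), and neither passed. Between regions, striatum minus prefrontal cortex was 0.10 ± 0.03 in inflexible drinkers (adjusted p = 0.346). In light drinkers it was 0.33 ± 0.03 and passed (adjusted p = 0.000386).

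Of the 3 other Lhx9 probe sets, 1 passed in light drinkers between regions (0.21 ± 0.04, adjusted p = 0.0340), 1 missed narrowly (0.23 ± 0.06, adjusted p = 0.0713) and 1 differed by 0.03 ± 0.03. Of 13 LIM homeobox genes and cofactors, Lmo3, a LIM-only factor, rose in prefrontal cortex of inflexible drinkers, at 5.21 ± 0.16 in inflexible and 4.16 ± 0.08 in light drinkers (1.05 ± 0.09, adjusted p = 0.00111). In light drinkers 3 of the 13 passed as higher and 3 as lower in striatum, where 4.68% of all genes were called.

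Rora was the second bright gene and was higher in prefrontal cortex. Its brightest probe set read 4.51, 4.60 and 4.67 in striatum of inflexible drinkers and 4.39, 4.57 and 4.51 in striatum of light drinkers. In prefrontal cortex it read 4.75, 5.00 and 5.03 in inflexible and 5.07, 4.90 and 4.91 in light drinkers. Every striatal array was below every prefrontal array, while inflexible and light drinkers overlapped within each region. The regional difference was -0.34 ± 0.08 in inflexible drinkers (adjusted p = 0.149) and -0.47 ± 0.08 in light drinkers (adjusted p = 0.0118), 1.39-fold lower in striatum.

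A second bright Rora probe set passed in both drinking classes, but not under every setting. It read 4.43, 4.33 and 4.44 in striatum and 4.68, 4.73 and 4.80 in prefrontal cortex of inflexible drinkers (-0.34 ± 0.06, adjusted p = 0.0379). That call was lost with the replicate block (-0.34, adjusted p = 0.0875). The difference was -0.41 on the low-control arrays and -0.30 on the high-control arrays. Each of these subsets leaves 1 array in a compared group, so they cannot decide whether the call holds. In light drinkers it read 4.27, 4.45 and 4.41 in striatum and 4.86, 4.68 and 4.77 in prefrontal cortex (-0.39 ± 0.06, adjusted p = 0.00561). On the high-control arrays, with 1 array in each light group, the difference was -0.40, and so few arrays cannot decide whether the call holds. The third bright probe set differed by -0.32 ± 0.19 in inflexible and -0.46 ± 0.19 in light drinkers and did not pass. Of the 6 dim probe sets 0 passed, and their differences ran from -0.36 to 0.15 in light drinkers. The class difference of the brightest probe set was 0.10 ± 0.08 in striatum and -0.03 ± 0.08 in prefrontal cortex, and 0 of the 9 Rora probe sets passed in either.

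**Figure D3:**
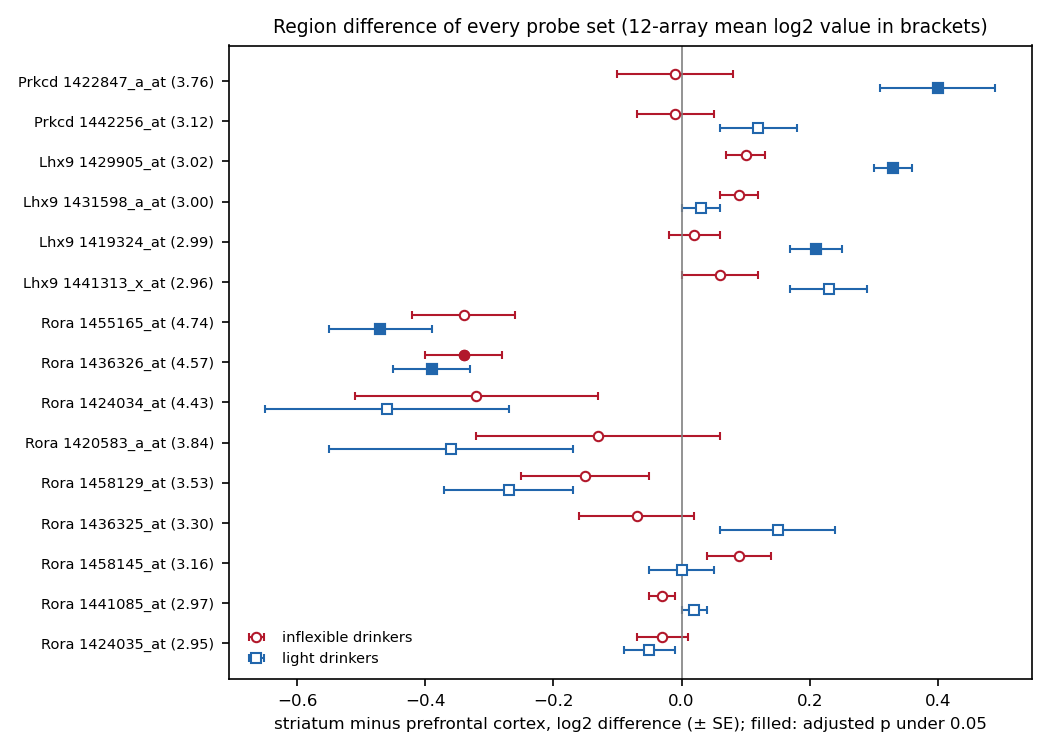
Striatum minus prefrontal cortex, log2 difference ± SE, for every probe set of Prkcd, Lhx9 and Rora in inflexible and light drinkers, with the 12-array mean in brackets and filled symbols where the adjusted p was under 0.05. The 3 bright Rora probe sets, with means above 4, all lie left of 0 in both drinking classes, and the called Prkcd and Lhx9 values lie right of 0 in light drinkers.

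Rorb, the closest relative of Rora, with a known role in the granular layer of sensory cortex, had regional differences of the same sign. In inflexible drinkers the difference was -0.33 ± 0.18 and did not pass (adjusted p = 0.825). In light drinkers Rorb stood at 4.73 ± 0.09 in striatum and 5.91 ± 0.28 in prefrontal cortex, a difference of -1.18 ± 0.18 (adjusted p = 0.00611). It was the 1 gene of 8 in the list of ROR relatives and ROR element clock genes that passed between regions in light drinkers. Between drinking classes 0 of 8 passed in prefrontal cortex, with 4 at an unadjusted p under 0.05 (9.17% of all genes). Rorb had the smallest p, at 5.29 ± 0.11 in inflexible and 5.91 ± 0.28 in light drinkers (-0.62 ± 0.18, adjusted p = 0.276).

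Plekhg1 was dim. Striatum read 3.33, 3.73 and 3.30 in inflexible and 3.57, 3.78 and 3.91 in light drinkers, and inflexible replicate 2 overlapped the light arrays. The difference was -0.30 ± 0.12 (adjusted p = 1.00), and it was -0.44 without that array and -0.11 on the low-control arrays. In prefrontal cortex the values were 3.61, 3.39 and 3.65 in inflexible and 3.39, 3.46 and 3.43 in light drinkers, a difference of 0.13 ± 0.12. Of 5 other Plekhg genes 0 passed between drinking classes in either region, with 0 at an unadjusted p under 0.05.

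Counted together, drinking class gave 0 calls among the 9 genes in either region. The genes were chosen with earlier results of these data known, so the counts here and below are descriptions and not independent tests. In striatum limma called 0 of 9, where 0.022% of all genes and 0.0111% of all probe sets were called. At an unadjusted p under 0.05 it was 3 of 9 (Zic1, Lhx9 and Plekhg1), where 3.69% of all genes reached that. The arrays of 2 of 9 genes, Zic1 and Lhx9, did not overlap and were lower in inflexible drinkers. Of all genes 7.53% did not overlap, and 2.97% were lower in this way. In prefrontal cortex 0 of 9 were called (1.04% of all genes, 0.826% of all probe sets). There 3 of 9 reached an unadjusted p under 0.05 (Zic2, Prkcd and Lhx9; 9.17% of all genes), and the arrays of the same 3 did not overlap (14.1% of all genes). The median difference of the 9 genes was -0.07 in striatum and -0.02 in prefrontal cortex, against 0 over all genes in each.

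**Figure D4:**
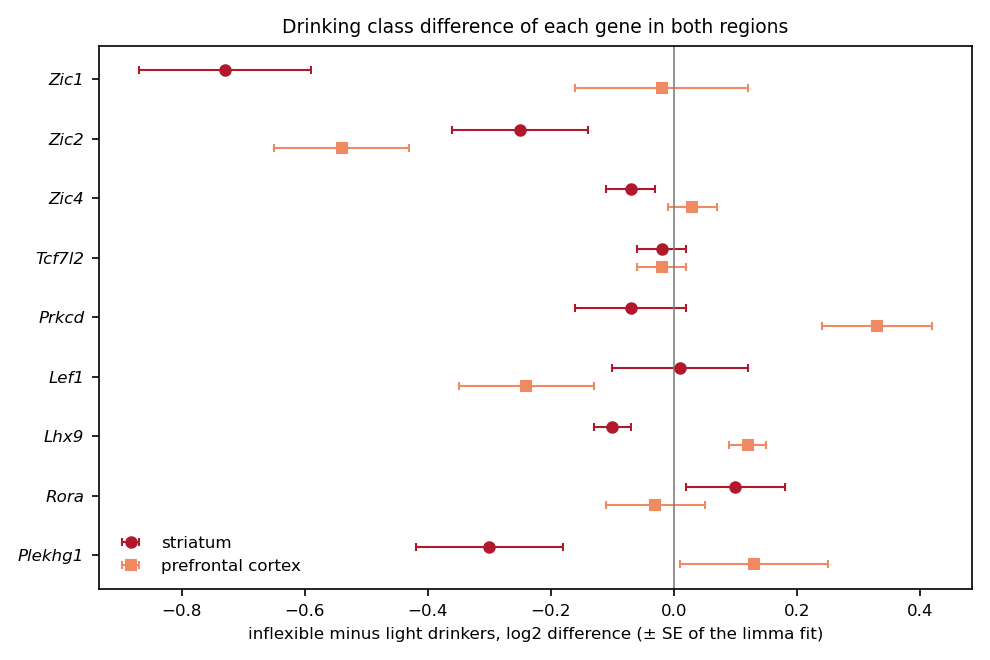
Inflexible minus light drinkers, log2 difference ± SE from limma, of the brightest probe set of each gene in striatum and prefrontal cortex. Zic1 in striatum (-0.73) and Zic2 in prefrontal cortex (-0.54) lie farthest from 0, and 0 of the 9 genes passed in either region.

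The test of whether the class difference itself differed between regions called 0 of 9 genes (0.44% of all genes) and 0 of 28 probe sets (0.313% of all), with 4 at an unadjusted p under 0.05, namely Zic1, Prkcd, Lhx9 and Plekhg1 (7.09% of all genes). Each of these 4 was negative: -0.71 ± 0.20 for Zic1, -0.41 ± 0.13 for Prkcd, -0.23 ± 0.05 for Lhx9 and -0.43 ± 0.17 for Plekhg1, with adjusted p-values from 0.113 to 0.800.

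Between regions, in inflexible drinkers 0 of 9 genes were called by their brightest probe set (1.2% of all genes) and 1 of 28 probe sets, that of Rora (0.773% of all probe sets). There 3 genes reached an unadjusted p under 0.05, namely Zic1, Lhx9 and Rora (9.54% of all genes), and 2 of 9 had arrays that did not overlap (12.6% of all genes). In light drinkers striatum was higher than prefrontal cortex for Prkcd and Lhx9 and lower for Rora, 3 of 9 genes, where 4.68% of all genes were called. By probe set it was 5 of 28, where 3.32% of all were called, and 7 of 9 genes had arrays that did not overlap between regions (19% of all genes). At an unadjusted p under 0.05 it was also 7 of 9 (14.6% of all genes). Whether the region differed more in light than in inflexible drinkers is the same test as the one of class by region, which called 0 of 9.

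Other genes of septum and thalamus gave few calls. Of the 8 septal genes Trpc4, a cation channel gene of lateral septal neurons, rose in prefrontal cortex of inflexible drinkers, at 3.92 ± 0.09 in inflexible and 3.53 ± 0.10 in light drinkers (0.38 ± 0.06, adjusted p = 0.0259). In light drinkers Trpc4 was 0.59 ± 0.06 and the neurotensin gene Nts 0.50 ± 0.11 higher in striatum than in prefrontal cortex, and 0 of the 8 passed as lower. Of the 13 thalamic and habenular genes 0 passed between drinking classes in prefrontal cortex. There 3 reached an unadjusted p under 0.05 (9.17% of all genes), and Shox2 had the smallest p (0.10 ± 0.03, adjusted p = 0.307). Plcb4, a phospholipase C gene, was lower in striatum of light drinkers (-1.32 ± 0.18, adjusted p = 0.00258) and the 1 thalamic gene called between regions there. Among Wnt genes Tle4, a corepressor that binds TCF factors, was higher in striatum of light drinkers by 0.98 ± 0.17 (adjusted p = 0.0107).

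The genes whose pattern over the 12 arrays lay closest to that of Zic1 were Sh3rf1, a scaffold with a RING domain, Cracd, a regulator of actin capping, and Washc2, a subunit of the WASH complex on endosomes. Zic1 was the only member with both a mean above 4 and group means at least 0.5 apart, which the rule for this comparison required. After centring, Sh3rf1 differed from Zic1 by a root mean square of 0.17 and the other 2 by 0.18, against a median of 0.37 over 6592 candidate genes. That median also depends on how much the candidates vary, so it is not the value for a gene without likeness. Sh3rf1 averaged 4.25 in inflexible and 4.64 in light striatum, and 4.63 in inflexible and 4.39 in light prefrontal cortex. Unlike Zic1, which differed there by -0.02, Sh3rf1 was thus higher in prefrontal cortex of inflexible than of light drinkers. Cracd averaged 4.96 in inflexible and 5.26 in light striatum, and 4.98 in inflexible and 4.92 in light prefrontal cortex, so that, unlike in Zic1, striatum of inflexible drinkers was not its lowest group. Washc2 averaged 5.84 in inflexible and 6.30 in light striatum, and 6.10 in inflexible and 6.17 in light prefrontal cortex. These are descriptions of 12 arrays that share 4 groups.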

How the data were processed

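RNA of 12 arrays was measured, 3 in each of 4 groups taken from the sample titles. The authors deposited 1 table of probe set values, treated here as log2 values: the base is not written and was read from their range. RMA, which corrects background, normalises and summarises probes, and the affy package are named per the submitters' processing notes, without versions. This summary compresses low values, so any true differences of dim genes may be understated, which was not tested here. The number of arrays limits the precision.

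Of 45101 probe sets 64 controls were left out. The annotation gave 34945 of the rest 1 symbol, 932 several and 9160 none. Limma 3.58.1 in R 4.3.3 estimated the mean of each of the 4 groups from all 12 arrays together (two-sided moderated tests, with 8 residual degrees of freedom). Tested on simulated data for the prefrontal comparison, it recovered 170 of 200 probe sets shifted by 1 log2 unit, with 9 false calls among the unshifted rest of 45037. The simulated noise was independent between arrays, without the control split, and the shift exceeded every class difference of the 9 genes. These rates therefore do not give the power or error of the tests above. Tables and figures used Python 3.11.15, pandas 2.3.3 and matplotlib 3.10.9.

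The members and the gene lists were chosen with earlier results of these data known. All members are named. From each other list, the called genes of the prefrontal class comparison (up to 4) were named or, where none was called, the one with the smallest p, and from the septal, thalamic, Wnt and ROR lists also those called between regions in light drinkers. Of the marker lists, only examples are printed. Chat, Gbx2, Ntng1, Amotl1 and Calb2 were named after their values were seen.

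Deviations from the group means correlated between same-numbered arrays of the prefrontal groups (0.74, 0.85 and 0.62), so replicate numbers were taken to pair them there. Arrays of unlike number correlated as well, inflexible replicate 1 with light replicate 3 at 0.80 and inflexible replicate 3 with light replicate 1 at 0.62. Replicate 2 of either group against another number of the other group gave -0.83 to -0.67. In both groups replicate 2 alone had high hybridisation controls, so these values do not show a pairing by number apart from the control split. In striatum the same-numbered arrays gave 0.25, 0.26 and -0.64. The fit of the prefrontal arrays alone with the replicate block was added after this was seen.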

Additional observations from a re-analysis of the deposited data

Results flagged for a closer look

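In the brightest Lhx9 probe set the class differences had opposite signs in the 2 regions, though neither passed. All 3 inflexible arrays lay below all 3 light arrays in striatum (-0.10 ± 0.03) and above them in prefrontal cortex (0.12 ± 0.03). The difference between these differences was -0.23 ± 0.05, with an unadjusted limma p of 0.000615 and an adjusted p of 0.113 over all probe sets, so it did not pass. Over its alternatives the value ran from -0.26 to -0.13. All levels of this probe set lay between 2.83 and 3.21, near the lower end of the scale. The other Lhx9 probe sets, as dim, did not all share its signs. Two-region values with the same signs were 0.10 and -0.09, and 0.12 and -0.05, in prefrontal cortex and striatum. Another gave the reverse, -0.05 in prefrontal cortex and 0.02 in striatum.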

How the results depend on the processing

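The drinking class calls among the 9 genes stayed at 0 in striatum and in the class by region test under every setting tried, and the region calls stayed at 0 in inflexible drinkers, counting the brightest probe set of each gene. In prefrontal cortex 1 gene was called with the hybridisation-control split as a block (Zic2), 1 on the low-control arrays alone (Prkcd) and 1 with the replicate block in the prefrontal arrays alone (Zic2). The region calls in light drinkers were 5 with the hybridisation-control block (Zic4 and Plekhg1 added), 0 on the high-control arrays, where each light group had 1 array, 1 among genes with a mean above 4 (only 2 were then tested), and 1 to 3 when single arrays were left out, with 1 without prefrontal light replicate 1. On the low-control arrays Zic1 (0.38, adjusted p = 0.0169) and Plekhg1 (0.43, adjusted p = 0.0103) newly passed. Rora lost its call there (-0.45), with the mean of its probe sets (-0.20, adjusted p = 0.0701) and without prefrontal light replicate 1 (adjusted p = 0.0539). Lhx9 kept its call except on the high-control arrays (0.31), which with 1 array in each light group cannot decide it. The planned replicate block over all 12 arrays called 206 probe sets in prefrontal cortex and 51 in the class by region test and ended 2 calls among the brightest probe sets of the 9 genes and the other bright ones, that of Prkcd between regions in light drinkers and that of the second Rora probe set between regions in inflexible drinkers.

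Counts over all probe sets moved more. In prefrontal cortex 372 probe sets were called, against 1119 with the hybridisation-control block, 1243 and 0 on the low-control and high-control arrays, 215 above a mean of 4, 198 in the prefrontal arrays alone, 899 in these with the replicate block, and 157 to 394 without single arrays. In striatum it was 5, against 34, 0, 0, 2 above a mean of 4, 1 in the striatal arrays alone and 2 to 9 without single arrays. The class by region test called 141, against 443 with the block, 0 on the high-control arrays and 62 to 161 without single arrays. Between regions 1496 were called in light drinkers, against 3152 with the block, 3775 and 0 on the low-control and high-control arrays and 942 to 1607 without single arrays. In inflexible drinkers 348 were called, against 972 with the block, 0 on the high-control arrays, 61 in these arrays alone and 158 to 404 without single arrays. The causes were not tested, apart from the fewer arrays or probe sets that a setting itself leaves.

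Of 865 values of single genes under other settings 801 kept direction and side of the threshold, 7 newly passed, 17 no longer passed and 39 changed sign from a value within 1 SE of 0. The remaining one, the prefrontal class difference of Plekhg1, was -0.07 on the high-control arrays, against 0.13 over all. Dim probe sets limit what these arrays can show for 7 of the 9 genes.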
